A study of Mus musculus with 6 samples.

Results

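The transcripts described here are the annotated nonsense-mediated decay (NMD) transcripts of the fetal mouse heart, each set against the protein-coding transcripts of its own gene. A member was a transcript of the GENCODE M21 type nonsense_mediated_decay with a mean of at least 20 estimated reads over the 6 libraries, in a gene whose protein_coding transcripts together also averaged at least 20. This rule used measured reads, and it kept 1164 of 7169 NMD transcripts, in 1011 genes, out of 115685 annotated transcripts of all types. The last transcripts inside the minimum were Ryk-204 at 20.0, Zcchc8-202 at 20.1 and Man2c1-217 at 20.1 mean reads, and the first outside were Fam189b-206 at 19.98, Mocs2-211 at 19.93 and Rbm39-218 at 19.91. Of the 1011 genes, 878 held 1 member, 117 held 2 and 16 held more. A further 4389 NMD transcripts lay below the minimum in genes with coding transcripts above it, and are not described.

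The hearts came from wild-type FVB/NJ mouse fetuses whose dams were 10 weeks old. From gestational day 5 the dams inhaled either filtered air (sham) or an aerosol of nano-sized titanium dioxide (nano-TiO2, target 12 mg/m3) for 360 minutes on 6 non-consecutive days within 8 days, and fetal hearts were taken on gestational day 15. Each group had 3 pools of hearts from both sexes. The libraries are the input libraries of an RNA methylation experiment, made from fragmented total RNA without the antibody step. The labels do not say how many litters stand behind a pool, so a p-value here covers no more than the scatter of these pools. Salmon assigned between 12881945 and 22720009 reads per library. Haemoglobin genes took 10.5% to 23.3% of the reads in sham and 5.64% to 10.1% in nano-TiO2, while the summed cardiomyocyte markers (14 genes, none at 0) spanned 46794 to 55660 CPM (reads scaled to the same library total) in sham and 47243 to 53584 in nano-TiO2. Summed hepatocyte markers spanned 20.8 to 723 CPM in sham and 3.38 to 33.2 in nano-TiO2, and lung epithelium markers 11.4 to 130 in sham and 0.331 to 1661 in nano-TiO2; their part in the results was not tested. In such bulk tissue, fewer cells of a type and less RNA per cell cannot be told apart.

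NMD is the cytoplasmic pathway that degrades an mRNA when the ribosome stops well upstream of the last exon junction. The junction is marked by the exon junction complex, the helicase UPF1 is recruited to the terminating ribosome, SMG1 phosphorylates UPF1, and factors that bind phosphorylated UPF1, such as SMG5 and SMG6, start the decay. Many splicing factors, above all the serine/arginine-rich (SR) proteins, limit their own level by splicing in a poison exon that carries an early stop, so that part of their pre-mRNA is sent to this pathway.

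The final codon and the bases before it show how the members acquire their stops. Each line gives 30 bases of the annotated transcript (GENCODE M21, build GRCm38), 5′ to 3′, ending with the stop codon in capitals. The first 4, from 3 SR genes and Rbmx, end in an exon that no coding transcript has. Ddx5-208 ends in the part of a longer exon that coding transcripts lack, Zfp207-207 ends on a stop that a coding transcript also uses, and the last 2 end inside sequence that coding transcripts also hold in an exon.
Srsf3-201: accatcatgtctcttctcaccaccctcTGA
Srsf7-203: aggtttcttcgtttgagtcagtcgcctTGA
Srsf11-206: gctgaagttcttttccctggttcagccTGA
Rbmx-205: tacagagattcgtatgagagttatggtTGA
Ddx5-208: accgatgtggcctccagagggctaggtTAG
Zfp207-207: cctgtaatgtcgcaaggtggccgttacTGA
Mtch2-203: atgggaggcgtgggttgttcacaggctTGA
Sec22b-204: gtcaggctaagcaactctttcgaaagtTGA
Srsf3-201 (chromosome 17) carries its stop at transcript positions 530 to 532, in a separate exon of 456 bases. The stop stands 548 bases before the last junction, and 3 junctions follow it, the last one included. The separate exon of Srsf7-203 (chromosome 17) has 460 bases, and that of Srsf11-206 (chromosome 3) has 109. In Rbmx-205 (chromosome X) the stop stands 84 bases before the last junction, and the 1121 bases that no coding transcript holds lie outside the stretch of the gene that its coding transcripts span. In Ddx5-208 (chromosome 11) all 1265 such bases lie within that stretch, so they are intronic for the coding transcripts. Zfp207-207 (chromosome 11) has 1220 such bases, all after the stop and outside the coding transcripts' span. Mtch2-203 (chromosome 2) and Sec22b-204 (chromosome 3) have none.

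Across the members, 748 stops fell in coding-exon sequence, 323 in sequence that no coding transcript of the gene holds (called NMD-only sequence below) and 92 on a stop shared with a coding transcript, and 1 transcript had no annotated stop. The stop stood more than 50 bases before the last junction, the distance of the classical NMD rule, in 745 of the 748, 322 of the 323 and all of the 92. The median distance from stop to last junction was 412.5 bases. The stop codon was TGA in 670, TAA in 257 and TAG in 235 of 1162 complete stop codons. In 184 members of 176 genes the stop lay in a separate exon that no coding transcript has, with a median length of 109.5 bases, and in 123 of the 184 that length was not a multiple of 3. NMD-only sequence was absent from 518 members and came to fewer than 50 bases in 695, which leaves few or no bases that set their reads apart from coding reads other than at exon junctions.

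Relative to the coding reads of their genes, the NMD reads that Salmon assigned did not differ as a whole between the groups beyond the spread of the pools. NMD reads made up 18.1%, 19.5% and 16.0% of NMD plus coding reads in sham libraries 1 to 3, and 17.5%, 17.3% and 18.4% in nano-TiO2. The groups overlapped, with means of 17.9% ± 1.76 and 17.7% ± 0.605 (SD, n = 3 each; exact two-sided permutation test, p = 1, where 3 against 3 cannot go below 0.1). Lars2-209 alone took 79108.4, 62564.5 and 58053.5 estimated reads in sham and 32558.5, 27693.1 and 59820.4 in nano-TiO2. Its part in these shares was not tested. The typical gene had 23.5 NMD reads per 100 coding reads, counted without regard to length, and in 175 genes NMD reads outnumbered coding reads. The median log2 ratio over genes was -2.19 ± 0.13 in sham and -2.17 ± 0.06 in nano-TiO2 (exact p = 0.9). Counted directly on sequence that no coding transcript holds, the pooled NMD reads per 100 coding reads were 13.96, 14.2 and 16.1 in sham and 13.1, 12.7 and 13.5 in nano-TiO2, without overlap (14.7 ± 1.16 against 13.1 ± 0.401, SD, n = 3 each; exact permutation p = 0.1, the smallest possible). The median log2 ratio over genes of the same counts was -3.52 ± 0.03 in sham and -3.45 ± 0.07 in nano-TiO2 (exact permutation p = 0.2), so the pooled and the median differences had opposite signs. Emc8 alone had 11732, 8139 and 16261 such NMD reads in sham and 6912, 5098 and 10870 in nano-TiO2. Per 100 coding reads of Emc8 these were 1063, 1278 and 1615 against 996, 731 and 1045. Exons of Cox4i1 overlap further NMD-only sequence of Emc8, which was left out. The part of Emc8 in the pooled difference was not tested.

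Retained-intron transcripts, chosen by the same rule, had a lower Salmon ratio than NMD transcripts in every library, and their groups did not overlap. Their share was 4.84%, 4.09% and 4.65% in sham and 6.06%, 6.78% and 6.31% in nano-TiO2, without overlap (4.53% ± 0.387 against 6.38% ± 0.363, exact permutation p = 0.1, the smallest possible). The NMD median lay above the retained-intron median by 1.40 ± 0.05 in sham and 1.06 ± 0.10 in nano-TiO2 on the log2 scale, a difference of -0.34 (exact permutation p = 0.1). On TPM, Salmon's unit divided by transcript length, that difference was -0.07 (exact permutation p = 0.1). There 0.5 was added to both sides of each ratio, as it was on reads, and the part of this addition was not tested. On reads counted directly over class-only sequence the difference was -0.06 (exact permutation p = 0.4). The order of the classes was the reverse there, with the NMD median below the retained-intron median by a log2 difference of -0.38 ± 0.03 in sham and -0.44 ± 0.11 in nano-TiO2.

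**Figure D1:**
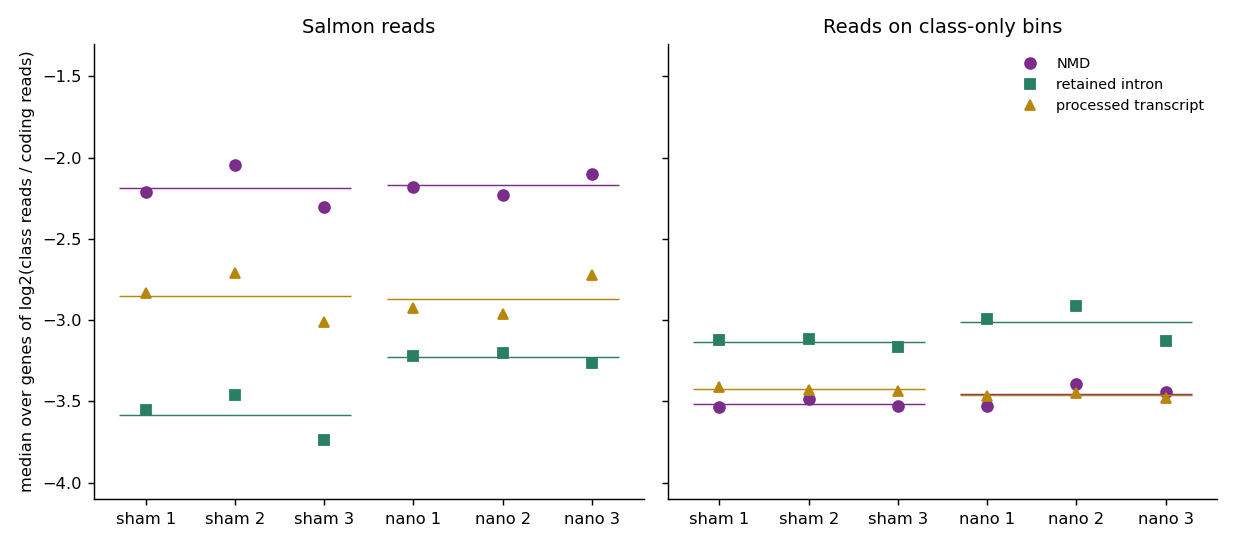
Median over genes of log2(class reads / coding reads) in each of the 6 libraries (points; horizontal lines are group means), for Salmon reads (left) and for reads on bins that only the class holds (right); nano stands for nano-TiO2. The NMD medians of the groups overlap on Salmon reads, while the retained-intron medians of nano-TiO2 lie above those of sham there and overlap on bins.

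No single gene's NMD-to-coding ratio, as Salmon split the reads, passed the test between groups. edgeR's quasi-likelihood test with the coding reads as offset called 0 of the 1011 genes at an adjusted p under 0.05, against 0% of the 3781 ratios tested over NMD, retained-intron and processed_transcript classes, and the smallest adjusted p was 0.102. At an unadjusted p under 0.05, 33 genes had a higher and 46 a lower ratio in nano-TiO2, where 9.34% of all ratios tested were higher and 3.62% lower. DESeq2 called 23 higher and 23 lower, and limma 2 and 1, and the shares of all ratios that these tools called are not given. The median log2 change was -0.04 for NMD, 0.25 for retained introns and 0.09 over all ratios tested. The biological coefficient of variation of these ratios was 72.3%, and 261 genes had 0 NMD reads in at least 1 library, so 0 calls does not show that the ratios were alike.

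The named genes below are those with the smallest unadjusted p in each direction among genes with at least 50 NMD reads and non-overlapping groups, and none of these Salmon ratios passed the adjusted threshold. Of the 8 with higher ratios, Rbmx, Srsf3 and Tia1 are among the 60 splicing and RNA-binding genes of the 1011. Zfp207, a zinc-finger protein of the kinetochore and of splicing, had 16.5, 18.7 and 17.4 NMD reads per 100 coding reads in sham and 37.3, 35.4 and 31.9 in nano-TiO2 (log2 change 0.99, SE 0.16, edgeR adjusted p = 0.102). Rbmx, an X-linked hnRNP that takes part in splice-site choice, had 10.3, 14.2 and 11.9 against 29.8, 27.9 and 27.2 (1.22, SE 0.21, edgeR adjusted p = 0.114). With a trend in length and GC content taken out of the Salmon ratios, Zfp207 stood at 0.02 and Rbmx at 0.74. Srsf3, an SR protein, had 33.1, 24.1 and 14.1 against 85.2, 74.8 and 61.8 (1.64, SE 0.34, edgeR adjusted p = 0.156). Clasrp, a partner of the SR-protein kinase CLK4, had 23.3, 6.44 and 12.1 against 146, 77.4 and 76.0 (2.82, SE 0.58, edgeR adjusted p = 0.148). Tia1, an RNA-binding protein of stress granules, was listed at 0 in all sham libraries and at 24.3, 65.4 and 12.7 in nano-TiO2, so it entered the set through nano-TiO2 only and no fold is given. The other 3 were the uncharacterised 0610037L13Rik at a log2 change of 1.26 (0.012 with the trend taken out), the endosomal adaptor Ankfy1 at 1.32 and the actin exporter Xpo6 at 1.55 (-0.0728 against all other transcripts of the gene).

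In all 8 named genes with lower ratios in nano-TiO2 the NMD transcripts were shorter than the coding ones, as they were in 782 of the 1011 genes and in 4 of the 8 with higher ratios. Aptx, which repairs adenylated DNA ends, had 781, 869 and 742 NMD reads per 100 coding reads in sham and 293, 414 and 311 in nano-TiO2 (-1.21, SE 0.20, edgeR adjusted p = 0.102). Sec22b, a SNARE of the endoplasmic reticulum and Golgi, had 157, 167 and 134 against 86.7, 68.9 and 72.0 (-1.01, SE 0.17, edgeR adjusted p = 0.102). Mtch2, an outer mitochondrial membrane protein, had 205, 193 and 171 against 121, 141 and 136 (-0.51, SE 0.12, edgeR adjusted p = 0.197). In Aptx, Mtch2, Colec12 and the sham libraries of Sec22b, Dirc2 and Acer3, Salmon gave the NMD transcript more reads than the coding ones. The endosomal Wdfy1 stood at -1.31, Rwdd4a at -1.42, the scavenger receptor Colec12 at -1.95, the lysosomal membrane protein Dirc2 at -1.16 and the alkaline ceramidase Acer3 at -1.66 on the log2 scale. The Colec12 ratio rests on few coding reads: 12.7, 1.76 and 9.36 in sham and 44.55, 39.2 and 54.2 in nano-TiO2. Its NMD reads themselves were 251, 136 and 216 in sham and 338, 352 and 447 in nano-TiO2. On TPM with a pseudocount of 1, Aptx stood at -0.29, Wdfy1 at -0.68, Rwdd4a at -0.81, Dirc2 at -0.58, Acer3 at -0.75 and Colec12 on the other side of 0, at 0.83.

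Reads that fall on NMD-only sequence need no split between NMD and coding transcripts, and there some genes did pass the test. The deposited table of bins of about 25 bases along each gene gave reads on NMD-only bins and on coding bins, leaving out bins that exons of another gene overlap. This measure was added after the Salmon ratios had been seen. Other noncoding transcripts of the gene can share such sequence: NMD-only bins existed in 435 genes, 299 of which had bins that no other transcript holds, and among the genes called below Srsf3, Rit1, Rpl10a and Ubl4a had none. The NMD-only bins reached a mean of 20 reads in 175, and the biological coefficient of variation was 11.6%. edgeR called 11 genes higher and 4 lower in nano-TiO2 of the 175, against 4.26% higher and 1.05% lower of the 1809 bin ratios tested over the 3 classes. The median log2 change over the 175 genes was 0.02. The counts were 3 and 0 without nano-TiO2 library 1, 2 and 0 without sham library 3, and 5 to 9 higher and 1 or 2 lower with any other single library left out. Of the 15 genes called, 14 had the same sign on Salmon reads, 8 of them at an unadjusted edgeR p under 0.05. The share with the same sign over all 175 genes is not given, so the 14 have no background to be read against. All 15 were named after their values had been seen.

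Among the called genes, 3 encode splicing and RNA-binding proteins (Rbmx, Srsf3 and Ddx5), and in all 3 the NMD-only reads rose. Rbmx had 3.45, 6.05 and 4.66 reads on NMD-only bins per 100 on coding bins in sham and 13.5, 11.4 and 11.3 in nano-TiO2 (log2 change 1.40, SE 0.21, edgeR adjusted p = 0.00247), from 39, 38 and 48 reads against 126, 98 and 135. The call for Rbmx held under all 15 alternatives run on it, with an edgeR, DESeq2 or limma adjusted p of at most 0.0478. Coding bins within 10 bins of the NMD-only ones were no usable denominator for Rbmx: they held 5, 5 and 4 reads in sham and 16, 7 and 23 in nano-TiO2, below the minimum mean of 20. Those nearby coding reads were also higher in every nano-TiO2 library, and the part of position within the gene was not tested for Rbmx. Srsf3 had 1.45, 1.34 and 1.08 against 3.37, 3.07 and 2.43 (1.19, SE 0.22, edgeR adjusted p = 0.00743), over 450 bases of the poison exon shown above. Srsf3 has no coding bin within 10 bins of its NMD-only ones. Its call held under 12 of 14 alternatives and was lost with limma (1.18, adjusted p = 0.0536) and without sham library 3 (1.06, edgeR adjusted p = 0.0606). Both genes were higher in every nano-TiO2 library, while the total reads of neither gene passed the test (Rbmx 0.17, edgeR adjusted p = 0.335; Srsf3 -0.13, edgeR adjusted p = 0.462). A retained-intron transcript also covers the Srsf3 exon, and reads over retained-intron sequence that no other Srsf3 transcript holds stood at 0.32 (SE 0.12, edgeR adjusted p = 0.203), while on Salmon reads the retained-intron ratio of Srsf3 stood at 1.82, beside 1.64 for its NMD ratio. The part of retained-intron transcripts in the Srsf3 call was not tested.

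Zfp207 had 6.07, 7.11 and 6.36 reads on NMD-only bins per 100 on coding bins in sham and 12.2, 10.6 and 10.9 in nano-TiO2 (0.80, SE 0.13, edgeR adjusted p = 0.0049). That call held under 15 of 16 alternatives, but with coding bins within 10 bins of the NMD-only ones as the denominator the difference was 0.02 (edgeR adjusted p = 0.996). The NMD-only bases of both Zfp207 members lie after the stop, outside the span of the coding transcripts, so the position within the gene moves with this result, and its part was not tested. Ddx5, a DEAD-box RNA helicase that acts in splicing and transcription, had 4.69, 3.67 and 4.40 against 7.69, 6.91 and 5.49 (0.63, SE 0.14, edgeR adjusted p = 0.0239). Its call held under 9 of 16 alternatives and was lost with limma (adjusted p = 0.153), on sequence of no other transcript (edgeR adjusted p = 0.0832), and, in edgeR, without nano-TiO2 library 1 (adjusted p = 0.131) or 2 (0.0671), or sham library 1 (0.0502), 2 (0.104) or 3 (0.0982). Ddx5 as a whole rose by 0.68 (edgeR adjusted p = 0.00947). Reads of unspliced RNA would also fall on such intronic bins, and their part was not tested. The same holds for Srsf3 above and for Phf10, Rpl10a, Kxd1, Lmo7, Ubl4a and Camta1 below. All NMD-only bases of their members lie within the span of the coding transcripts, as do some of those of Ahnak and Rit1.

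**Figure D2:**
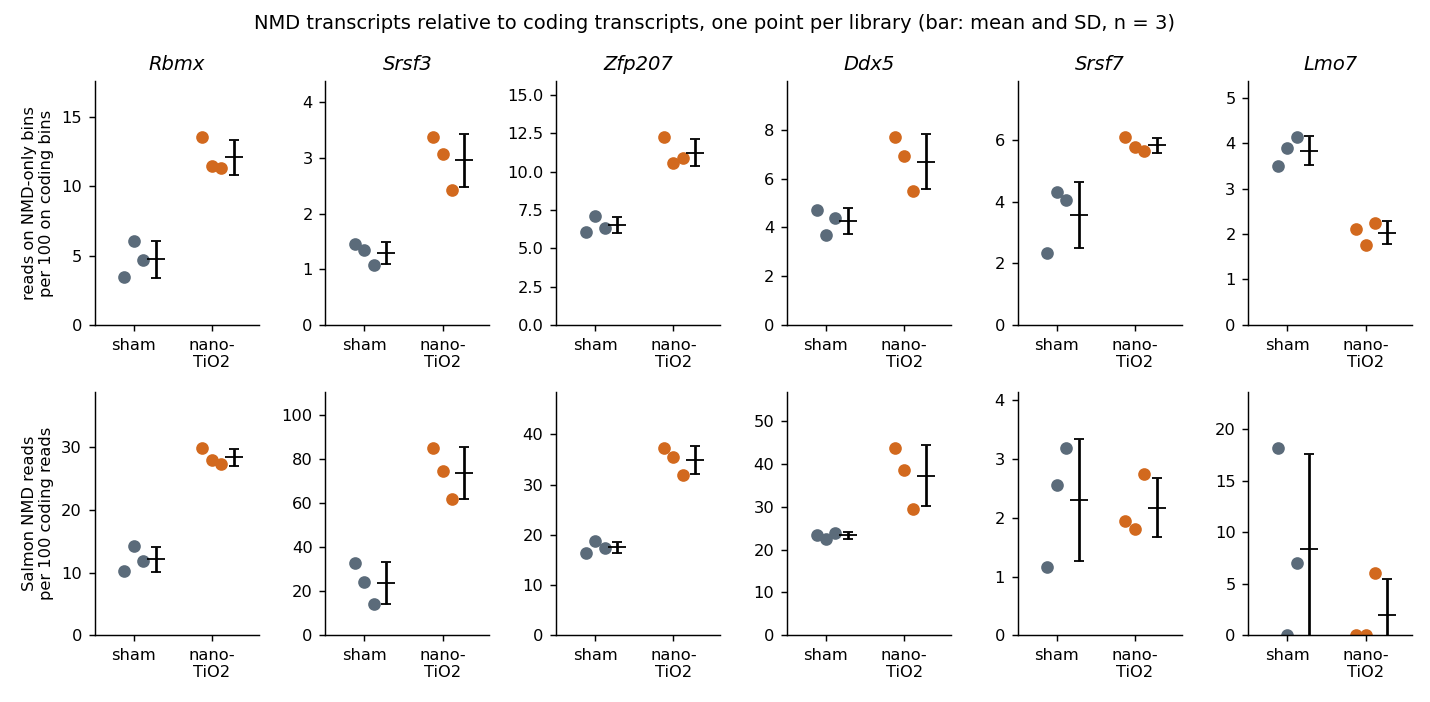
NMD relative to coding reads in each library for 6 genes: reads on NMD-only bins per 100 on coding bins (top) and Salmon NMD reads per 100 coding reads (bottom), with points for the 3 sham and 3 nano-TiO2 libraries and a bar for the mean and SD. On bins, the groups do not overlap in any of the 6 genes; on Salmon reads they overlap in Srsf7 and Lmo7.

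The other genes called higher had various functions. Tsc22d1, a transcriptional regulator of the TSC22 family, had 0.176, 0.29 and 0.177 against 0.681, 0.55 and 0.55 per 100 (1.52, SE 0.29, edgeR adjusted p = 0.00743), called under 11 of 14 alternatives and lost with limma (adjusted p = 0.0536) and, in edgeR, without nano-TiO2 library 1 (0.0553) or sham library 3 (0.055). Rit1, a small GTPase of the Ras family, had 7.29, 9.06 and 6.64 against 14.4, 12.8 and 13.05 (0.83, SE 0.18, edgeR adjusted p = 0.016), called under 10 of 15 and lost, among others, without nano-TiO2 library 1 (edgeR adjusted p = 0.0894) or sham library 1 (0.0654) or 3 (0.0981). In both genes all nano-TiO2 libraries stood above all sham libraries. Tmem176a, a membrane protein, had 4.50, 3.56 and 4.35 against 8.10, 7.64 and 7.97 (0.92, SE 0.21, edgeR adjusted p = 0.0234), called under 6 of 14 and lost with any 1 library left out (edgeR adjusted p up to 0.0867). The ribosomal protein gene Rpl10a (0.94, called under 5 of 14), the lysosome-positioning factor Kxd1 (0.68, 7 of 16, on 75 bases) and the chromatin-remodelling subunits Phf10 (0.79, 5 of 15) and Bcl7c (0.83, 4 of 15) completed the list. Leaving out single libraries took the edgeR adjusted p past 0.05 for Bcl7c with each of the 6, for Rpl10a and Kxd1 with each but nano-TiO2 3, and for Phf10 with each but sham 1. The Kxd1 change had the opposite sign on Salmon reads (-0.09), and against nearby coding bins it was 0.28 (edgeR adjusted p = 0.59). The NMD-only bins of Kxd1 held 88, 69 and 95 reads in sham, where Salmon assigned 50.75, 8.71 and 24.2 to the NMD transcript. In nano-TiO2 they held 79, 63 and 102, beside 27.4, 9.06 and 26.4. Once a trend over length and GC content was taken out, Bcl7c stood at 0.17, Phf10 at 0.49, Tmem176a at 0.58 and Rit1 at 0.54, and edgeR called none of these 4. Too few reads lay on nearby coding bins to use them for Tsc22d1, Tmem176a, Phf10 and Bcl7c. Every one of the 15 called genes kept its sign under each alternative run on it.

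The 4 genes called lower were Lmo7, Ahnak, Ubl4a and Camta1. Lmo7, a LIM-domain protein of cell junctions, had 3.49, 3.89 and 4.13 reads on NMD-only bins per 100 on coding bins in sham and 2.10, 1.76 and 2.24 in nano-TiO2 (-0.90, SE 0.18, edgeR adjusted p = 0.0114). All nano-TiO2 libraries lay below all sham libraries, and the call held under 10 of 15 alternatives. With nearby coding bins as denominator the Lmo7 difference was -0.19 (edgeR adjusted p = 0.828), and it was also lost with limma, without nano-TiO2 library 1, without sham library 3, and without sham library 2 and nano-TiO2 library 3 together. The NMD-only bins of Lmo7 held 66, 42 and 105 reads in sham, where Salmon assigned 286, 0 and 162 to the NMD transcript. In nano-TiO2 they held 81, 34 and 102, beside 0, 0 and 264. The sign of its Salmon change (-2.05, SE 2.47) is therefore uncertain. Ahnak, a very large scaffold protein, stood at -1.50 (called under 6 of 14), the tail-anchored protein factor Ubl4a at -0.48 (6 of 15) and the transcription factor Camta1 at -0.76 (5 of 15). With nearby coding bins, Ahnak stood at -0.50 and Camta1 at -0.16, and neither was called. The NMD-only bins of Camta1 held 147, 127 and 247 reads in sham, where Salmon assigned 43.4, 44.5 and 38.6 to the NMD transcript. In nano-TiO2 they held 101, 97 and 174, beside 34.4, 46.4 and 118. Leaving out single libraries ended the call of Ahnak with each but sham 1, of Ubl4a with each but nano-TiO2 3 and of Camta1 with each but nano-TiO2 2.

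**Figure D3:**
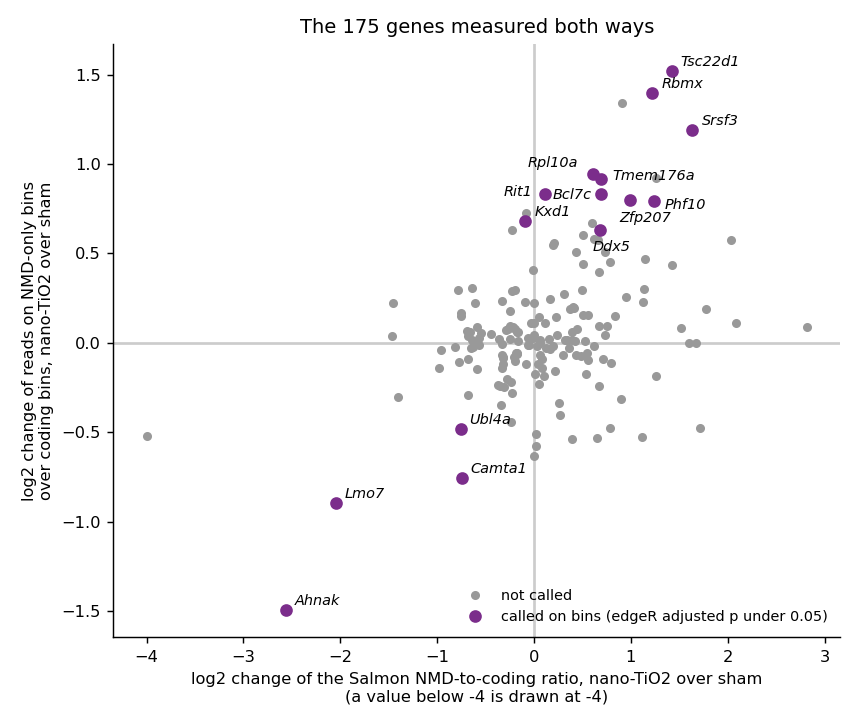
Log2 change (nano-TiO2 over sham) of reads on NMD-only bins over coding bins against that of the Salmon NMD-to-coding ratio, 1 point per gene for 175 genes, with the 15 genes called on bins labelled. The 2 measures share libraries and part of their reads; 14 of the 15 labelled genes have the same sign on both axes, and Kxd1 does not.

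Other SR and hnRNP genes among the members were not called. Srsf7 had 2.35, 4.31 and 4.05 reads on NMD-only bins per 100 on coding bins in sham and 6.09, 5.76 and 5.64 in nano-TiO2 (0.73, SE 0.20, edgeR adjusted p = 0.0571), just short of a call, while its Salmon ratio stood at -0.09. Hnrnpdl stood at -0.25 on bins (edgeR adjusted p = 0.663) and Clasrp, at 2.82 on Salmon reads, at 0.09 on bins (edgeR adjusted p = 0.95). On Salmon reads alone, Srsf11 stood at -0.67 (edgeR adjusted p = 0.467), Srsf2 at -0.24, the translation helicase Eif4a2 at -0.25 and the SR-protein kinase Clk1 at -0.30. Rps9, a protein of the small ribosomal subunit, had 0.452, 0.347 and 0.297 NMD reads per 100 coding reads in sham and 0.853, 1.17 and 0.799 in nano-TiO2 (1.35, edgeR adjusted p = 0.199). Srsf6 (-0.43, edgeR adjusted p = 0.273) and the spliceosomal protein gene Wbp4 (-0.92, edgeR adjusted p = 0.217), both named after their values were seen, lay on the other side of 0.

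By function, the 60 genes for splicing and RNA-binding factors held 3 of the 11 genes called higher on bins (Rbmx, Srsf3 and Ddx5) and none called lower, of 12 tested there, with a median log2 change of 0.33 beside 0.02 over all 175. On Salmon reads 5 of the 60 were higher and 2 lower at an unadjusted edgeR p under 0.05, with a median of 0.06, beside 33 higher and 46 lower of all 1011. The 5 include Tia1 and U2surp, which had 0 NMD reads in every sham library. Both entered the set through nano-TiO2 only, so their place among the 5 is no result about the class. Of all 1011 genes, 14 had 0 NMD reads in every sham library and 7 in every nano-TiO2 library. The median NMD ratio of the class per library averaged -2.98 ± 0.15 in sham and -2.84 ± 0.14 in nano-TiO2 on the log2 scale (SD, n = 3 each; exact permutation p = 0.2). The 66 chromatin and transcription genes had 3 higher and 0 lower on Salmon reads (median -0.12), and Phf10 and Zfp207 were called higher of 11 tested on bins (median 0.29). Among 50 genes for mitochondrial proteins 0 were higher and 2 lower (median -0.12), and of 10 tested on bins edgeR called none. The 50 ubiquitin and proteasome genes had 0 higher and 3 lower (median 0.12), the 38 membrane traffic genes 1 and 2 (median -0.06), and the 22 ribosomal protein and translation genes 1 and 1 (median 0.01). None of the 16 sarcomere and cytoskeleton genes passed even the unadjusted threshold in edgeR, and their median was 0.07. The 709 genes outside these lists had 23 higher and 36 lower (median -0.05), and on bins 5 called higher and 4 lower of 127.

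Length moved with the Salmon ratios. The genes were sorted by the length of the NMD transcripts over that of the coding transcripts and cut into 5 groups of equal size (quintiles). The quintile with the relatively shortest NMD transcripts had a median log2 change of -0.18, with 1 gene higher and 16 lower at an unadjusted edgeR p under 0.05. The quintile with the relatively longest had a median of 0.18, with 17 higher and 4 lower. The quintiles between them stood at -0.11, -0.15 and 0.08. By NMD length alone, the quintiles stood at -0.05, -0.10, -0.03, -0.02 and 0.09, at median lengths of 676, 1129, 1878, 2684 and 4237 bases. The libraries differed in the same respect: the read-weighted mean length of coding transcripts was 1795 to 2064 bases in sham and 2413 to 2570 in nano-TiO2, and its part in the ratios was not tested. The difference between the outer quintiles, 0.36, turned to -0.38 once a trend in length and GC content was fitted to every library and taken out.

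**Figure D4:**
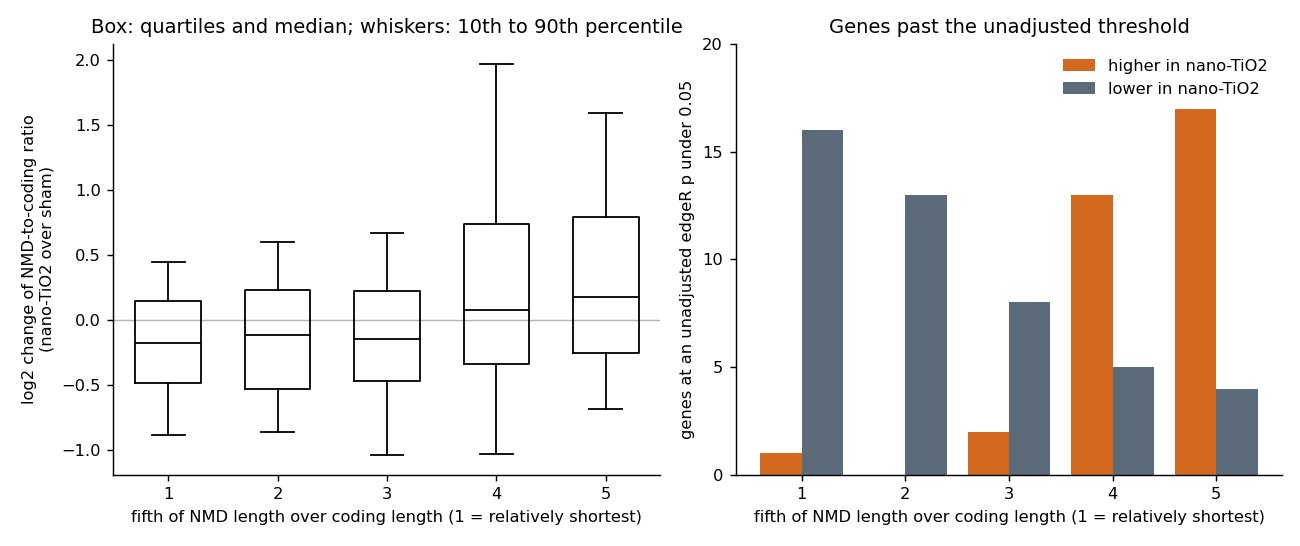
Log2 change of the Salmon NMD-to-coding ratio (left; box for quartiles and median, whiskers for the 10th to 90th percentile) and number of genes past an unadjusted edgeR p of 0.05 (right), by quintile of NMD length over coding length. Medians run from -0.18 in the relatively shortest to 0.18 in the relatively longest quintile.

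By the place of the stop, median changes of the Salmon ratio were -0.08 for genes whose most-read member ends in coding-exon sequence (17 higher and 30 lower at an unadjusted edgeR p under 0.05), 0.03 for a stop in NMD-only sequence (11 and 11) and 0.08 for a shared stop (5 and 5). These medians differ by less than those between the outer length quintiles.

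As transcripts in their own right, without division by coding reads, 9 members rose and 10 fell. edgeR's quasi-likelihood test over 30458 transcripts called 0.903% of all transcripts higher and 1.09% lower. Members that rose came from Rbmx, Ddx5, the splicing-related Scaf11, the chromatin gene Kmt2e, the matricellular Ccn4, Tia1, the U2 snRNP-associated U2surp, the RNA methyltransferase Nsun3 and the lipid phosphatase Plpp5. Scaf11-202 had 413, 257 and 387 estimated reads in sham and 840, 604 and 1072 in nano-TiO2 (log2 change 1.15, SE 0.13, edgeR adjusted p = 0.0477). Kmt2e-207 had 262, 120 and 248 against 625, 433 and 650 (1.39, SE 0.21, edgeR adjusted p = 0.0477), and Rbmx-205 had 113, 85.0 and 120 against 251, 219 and 296 (1.17, SE 0.19, edgeR adjusted p = 0.0489). Tia1-205, U2surp-208, Nsun3-202 and Plpp5-202 were listed at 0 in every sham library, and Col16a1-209 and Mgll-209 in every nano-TiO2 library; each entered the set through 1 group only. The NMD-only bins of Plpp5 held 45, 23 and 29 reads in sham and 34, 49 and 55 in nano-TiO2. Relative to coding bins their log2 change was 0.0002. Other noncoding transcripts of Plpp5 overlap all of these bins. Members that fell included the prolyl isomerase member Ppia-201, the apoptosis effector member Bak1-204 and the prefoldin member Pfdn5-201. Leaving out any single library took both counts to 0, and DESeq2 called 67 higher and 73 lower. The share of all transcripts that DESeq2 called is not given, so its counts have no background to be read against.

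The members with most reads are given next, and edgeR called none of their NMD-to-coding ratios. Ppia-201 had 27427, 16603 and 25585 estimated reads in sham and 13150, 11997 and 17849 in nano-TiO2, and fell as a transcript (-0.79, SE 0.08, edgeR adjusted p = 0.0477), while its ratio to coding reads stood at -0.21 (edgeR adjusted p = 0.708). Rpsa, of the small ribosomal subunit, stood at -0.05. Ppia and the ribosomal protein genes have near-identical copies elsewhere in the genome, so their reads are uncertain. Lars2-209, of the mitochondrial leucyl-tRNA synthetase, had the most reads of all members (mean 53300) at a ratio change of -0.43 (SE 0.52, edgeR adjusted p = 0.854). The coding transcripts of Lars2 had a mean of 520 reads, which put its ratio at 5204 to 17320 NMD reads per 100 coding reads. The origin of these NMD reads was not tested, so they are uncertain too. The ATP synthase subunit gene Atp5f1 stood at -0.33, elastin (Eln) at 0.06 and the glycolytic Gpi1 at 0.19.

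Of the 1011 host genes edgeR called 181 higher and 183 lower in total reads, against 15.5% and 12.8% of 13930 genes. After a trend in length and GC content was taken out of the gene reads too, the calls were 5 and 19. Over all 13930 genes that fit called 56 higher and 173 lower.

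Among 30 genes for NMD factors, 5 rose and 5 fell, shares near the 15.5% and 12.8% of all genes. Those that rose included the UPF1 kinase gene Smg1, the exonuclease gene Xrn1, the release factor gene Gspt1 and the cap-binding Ncbp2. Smg1 went from 10.3 ± 1.80 to 22.9 ± 6.18 CPM (log2 change 1.14, edgeR adjusted p = 0.012) and Xrn1 from 7.62 ± 1.29 to 18.4 ± 4.90 (1.27, edgeR adjusted p = 0.0104; SD, n = 3 in each group). The genes that fell encode exon junction complex proteins (Magohb, Magoh and Eif4a3), the helicase Ruvbl2 and the SMG1 regulator Smg9. Magohb went from 21.6 ± 2.06 to 12.7 ± 1.39 CPM (-0.77, edgeR adjusted p = 0.0141). Upf1 itself stood at -0.33 (edgeR adjusted p = 0.43). The 2 genes with the largest rises have long transcripts (13956 bases for Smg1 and 7783 for Xrn1), and Magoh and Magohb have the shortest (692 and 762). Without nano-TiO2 library 1 or 3 or sham library 1, 3 factors were called higher, and without nano-TiO2 library 1 or 3 or sham library 2, 0 were called lower. With a length and GC trend taken out of the gene reads, an alternative chosen after seeing these data, edgeR called 0 higher and 0 lower (1 and 3 at an unadjusted p under 0.05). The same fit called only 56 higher and 173 lower of all 13930 genes, so 0 calls among the 30 factors is near the share of all genes. In it Smg1 stood at 0.03, Xrn1 at 0.32 and Magohb at -0.53.

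Genes whose mRNA is known to build up when NMD is blocked, such as the stress genes Atf4, Ddit3 and Gadd45b, were not called higher. Of 16 tested of 21 listed, edgeR called 0 higher (also 0 at an unadjusted p under 0.05) and 2 lower, where 15.5% of all genes were called higher and 12.8% lower. The listed genes without a test were Gas5, Snhg1, Snhg12, Snhg15 and Zfas1, so the result does not cover them. Upp1, uridine phosphorylase, went from 82.5 ± 5.23 to 49.2 ± 1.38 CPM (-0.75, edgeR adjusted p = 0.00743), and Cdkn1a, a cell-cycle inhibitor, from 83.2 ± 10.4 to 58.2 ± 9.53 (-0.51, edgeR adjusted p = 0.0462; SD, n = 3 in each group). Atf4 stood at 0.10, Ddit3 at 0.07 and Gadd45b at -0.36. After the same correction Upp1 stood at -0.27 and Cdkn1a at -0.09, and neither was called. Ddit3 then stood at 0.72 (edgeR adjusted p = 0.0561), Atf4 at 0.45 (edgeR adjusted p = 0.1) and Gadd45b at 0.21, while Slc7a11, a cystine transporter gene, went from -0.48 to -1.40 and was called lower (edgeR adjusted p = 0.0411).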

How the data were processed

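The labels describe input RNA-seq of 3 sham and 3 nano-TiO2 pools. Per the submitters' processing notes, the tools named include Salmon 1.5.2, HISAT2 2.2.1 and DESeq2 1.34.0, with the build GRCm39. Transcript values are estimated counts and TPM as deposited in the authors' Salmon tables; the authors' gene table holds a signal per bin, reads divided by a size factor, from which whole reads were recovered (tolerance 0.001). How that table was counted, and whether by strand, was not given in the sources used here. Transcript types and structures came from GENCODE M21 (GRCm38), matched by identifier for 115685 of 116747 transcripts; with builds differing, no genome coordinates are given. Bins follow genomic order, as settled from coverage.

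Estimated counts were summed per gene and class, rounded, and tested with edgeR 4.0.16 (quasi-likelihood, robust, offset log(coding reads + 0.5), Benjamini-Hochberg over all 3781 ratios, threshold 0.05); transcripts and genes were fitted with TMM factors. Bin ratios were fitted likewise. DESeq2 1.42.0, limma 3.58.1, other minima and scalings, a length and GC trend (mgcv 1.9.3) and left-out libraries were alternatives. The tests were checked on simulated data. Genes named are the 8 with the smallest p in each direction with at least 50 NMD reads and separate groups, the 8 members with most reads, fixed SR, hnRNP, ribosomal and translation genes, and 4 NMD factors; others are said to be chosen after their values were seen, as were the called members. Members, lists and tests were chosen with earlier results of these data known. Some results that this rule names are not reported here.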

Additional observations from a re-analysis of the deposited data

How the results depend on the processing

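The difference in NMD share of -0.12 percentage points ranged from -1.29 to 0.70 over its alternatives, at an exact permutation p of 0.3 or more. The Salmon ratio counts (0 higher, 0 lower) became 23 and 23 with DESeq2, 2 and 1 with limma, and 1 higher on TPM with a pseudocount of 0.1; the median of -0.04 became -0.19 with the trend in length and GC content taken out. The difference by length of 0.36 became -0.38 with that trend removed. The NMD minus retained-intron difference of -0.34 became -0.41 at a minimum of 10 reads, -0.17 at 50, -0.42 with none and -0.0695 on TPM with 0.5 added, and lay between -0.39 and -0.30 with single libraries left out.

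The bin counts (11 higher, 4 lower) became 3 and 0 against nearby coding bins, 3 and 0 with limma, 6 and 2 at a minimum of 50 reads, 7 and 0 on sequence of no other transcript, 7 and 0 without sham 2 and nano-TiO2 3, and 7 higher with the trend removed; leaving out single libraries gave 2 to 9 higher and 0 to 2 lower. With overlapped bins kept they were 13 and 5. The transcript counts (9 higher, 10 lower) became 67 and 73 with DESeq2, 2 and 5 without a filter, 48 and 2 scaled by library totals, 0 and 0 without sham 2 and nano-TiO2 3, and 0 to 0 in both directions with single libraries left out. The NMD factor counts (5 higher, 5 lower) became 12 and 0 scaled by library totals, 3 lower with upper-quartile factors, 0 and 0 with the trend removed, and 0 and 0 without sham 2 and nano-TiO2 3; leaving out single libraries gave 3 to 6 higher and 0 to 5 lower. Except for the trend on gene reads, the shares over all features under these alternatives are not given. The causes were not tested.

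Same-numbered libraries correlated at 0.07, -0.09 and -0.04 in their NMD ratio deviations, and at -0.39, 0.02 and -0.08 in those of gene log2 CPM. With 3 libraries per group these values cannot settle whether the numbers pair samples. With a replicate block the transcript counts became 0 and 0, the NMD factor counts 3 and 1, and the bin counts 8 and 3.

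Ratios that reversed, none of them called: Clk1 (0.0533 with limma, 0.000888 with no minimum, 0.0334 on TPM with 0.1, -1.03 to 0.59 with single libraries left out), Srsf7 (0.0131 with limma, 0.00532 with the replicate block, 0.0768 on TPM with 0.1, -0.41 to 0.23 with single libraries left out), Eif4a2 (0.0145 without sham 2 and nano-TiO2 3, -0.54 to 0.26 with single libraries left out), Srsf2 (-0.51 to 0.27 likewise), Colec12 (0.83 on TPM with a pseudocount of 1) and Xpo6 (-0.0728 against all other transcripts). Depth limits the bin test to the 175 genes with enough NMD-only reads.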
